A study of Saccharomyces cerevisiae with 15 samples.

Results

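RNA levels were compared between a strain of budding yeast without MBF1 and a strain without BNA4, both expressing Htt103Q, a fragment of human huntingtin with an expanded glutamine tract. Of the 15 Affymetrix arrays of a series on a yeast model of Huntington's disease, the 6 arrays whose titles name these deletions were taken, 3 for each strain. The mbf1Δ group was BY4741 of mating type a with MBF1 deleted and Htt103Q switched on by galactose. The bna4Δ group was BY4741 of mating type a with BNA4 deleted and the same fragment. The other 9 arrays held cells of the same strain background with Htt103Q or a short-tract fragment, Htt25Q, and a ume1 deletion with Htt103Q, and the series' design text calls the 3 deletions suppressors. Per the labels, 12 mL cultures in uracil-free synthetic medium with 2% galactose were started at an optical density of 0.2 and shaken at 30 °C until they reached about 1.0. The huntingtin fragment was not measured by any named probe set, and the labels do not give its level, its plasmid or the number of clones. Both groups here carry Htt103Q, so no difference below is one of cells with and without the fragment.

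Mbf1 is a conserved coactivator that bridges the transcription factor Gcn4 and the TATA-binding protein, and Gcn4 switches on most amino acid synthesis genes when amino acids run short. Mbf1 also binds the ribosome and helps to keep the reading frame at stalled ribosomes. Bna4 is kynurenine 3-monooxygenase, which makes 3-hydroxykynurenine on the route from tryptophan to NAD, and its loss blocks that route while salvage from nicotinic acid still supplies NAD. Several yeast enzymes and repressors use NAD, among them the sirtuins, histone deacetylases that silence genes.

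The 6 arrays held 9335 probe sets, of which 60 were controls and 9275 were tested. Values are the deposited log2 signals, with medians between 6.78 and 6.84 on every array. A gene is represented by the probe set with the highest mean signal among those with its symbol alone, which gave 5656 genes, and differences are mbf1Δ minus bna4Δ. Genes were called when the Benjamini-Hochberg adjusted p of limma, taken over all 9275 probe sets, was under 0.05. The first principal component, with 65% of the variance, separated the strains, at -27.5 to -23.8 for the mbf1Δ arrays and 25 to 26.6 for the bna4Δ arrays. The second component, with 23.3%, set mbf1Δ array 3 at -30.9, apart from 15.8 and 15.5 for the other mbf1Δ arrays. The median SD of a probe set was 0.13 over the mbf1Δ arrays, 0.0663 over their arrays 1 and 2, and 0.0845 over the bna4Δ arrays. The labels do not say that replicates were separate cultures, so a p-value reflects only how far these samples spread, and 3 arrays a group limit the precision. RNA came from whole cultures, in which fewer cells with a transcript and less transcript per cell cannot be told apart.

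Each deleted gene was near the lowest deposited value of 2.02 in its own strain. BNA4 had log2 signals of 7.92, 8.02 and 8.10 in mbf1Δ, against 2.02, 2.02 and 2.33 in bna4Δ. Of the bna4Δ arrays 2 were at the lowest deposited value, so the difference of 5.89 ± 0.11 (SE, adjusted p = 0.000204) is best read as a bound. MBF1 had signals of 2.12, 2.12 and 2.05 in mbf1Δ, against 10.64, 10.46 and 10.39 in bna4Δ. This gave a difference of -8.40 ± 0.075 (SE, adjusted p = 2.11e-05), and since the mbf1Δ signal lay near the floor, the 338-fold lower level is best read as a bound. Of 7 neighbours by the R64 gene order, 5 were not called, namely ATP1, BRN1 and MRX3 beside BNA4 and TIM18 and BUD7 beside MBF1, with differences between -0.26 and 0.21. Near MBF1, RAX1, which helps to place buds, rose and averaged 7.18 ± 0.085 in mbf1Δ and 5.596 ± 0.36 in bna4Δ (difference 1.58 ± 0.20 (SE, adjusted p = 0.0133)), and MUM3, a sporulation gene, fell and averaged 2.72 ± 0.13 in mbf1Δ and 3.49 ± 0.15 in bna4Δ (difference -0.77 ± 0.11 (SE, adjusted p = 0.0166)). Fits without 1 array moved the adjusted p of RAX1 to 0.0533 (without mbf1Δ array 1) and MUM3 to 0.057 (without bna4Δ array 1).

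Strain markers were checked against the BY4741 label. MET17, a sulfhydrylase gene deleted in this background, stood at 2.02 on all 6 arrays, and LEU2, also deleted there, averaged 2.88 ± 0.16 in mbf1Δ and 2.80 ± 0.039 in bna4Δ. HIS3, of which BY4741 lacks a part, averaged 9.44 ± 0.062 in mbf1Δ and 9.33 ± 0.06 in bna4Δ. URA3, absent from BY4741 cells and required in medium without uracil, had 10.35, 10.15 and 10.50 in mbf1Δ, against 9.10, 9.16 and 9.20 in bna4Δ. The groups did not overlap, and the difference was 1.18 ± 0.099 (SE, adjusted p = 0.00498). None of the 9 measured galactose genes was called, with 1 at an unadjusted p under 0.05. The galactokinase gene GAL1, for example, had 12.72, 12.93 and 12.68 in mbf1Δ, against 12.80, 13.05 and 12.86 in bna4Δ (difference -0.13 ± 0.10 (SE, adjusted p = 0.485)). STE2, the receptor found on cells of mating type a, averaged 9.90 ± 0.095 in mbf1Δ and 9.71 ± 0.058 in bna4Δ. None of 8 diploid sporulation genes was called, but a lack of difference between the strains does not bear on the label. Their median signals were 2.47 in mbf1Δ and 2.43 in bna4Δ, beside a lowest deposited value of 2.02.

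Over all probe sets, 1269 of 9275 were called, 13.7%. Of these, 793 were higher in mbf1Δ (8.55%) and 476 were lower (5.13%). The 3 arrays of one strain all lay above the 3 of the other for 3318 probe sets, 35.8%. By gene, 628 rose (11.1%) and 351 fell (6.21%) in mbf1Δ, and 237 of them changed at least 2-fold, with 114 higher and 123 lower. The median difference over all genes was 0.02. Without mbf1Δ array 3, the array that stood apart, 1657 probe sets were called, and 1039 of the 1269 were among them. Leaving out bna4Δ array 2 gave 569 calls, the fewest of the 6 such fits. Every one of the 1269 kept its sign in each of these fits, but the fits reuse the arrays that gave the calls, so a change of sign was unlikely.

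**Figure D1:**
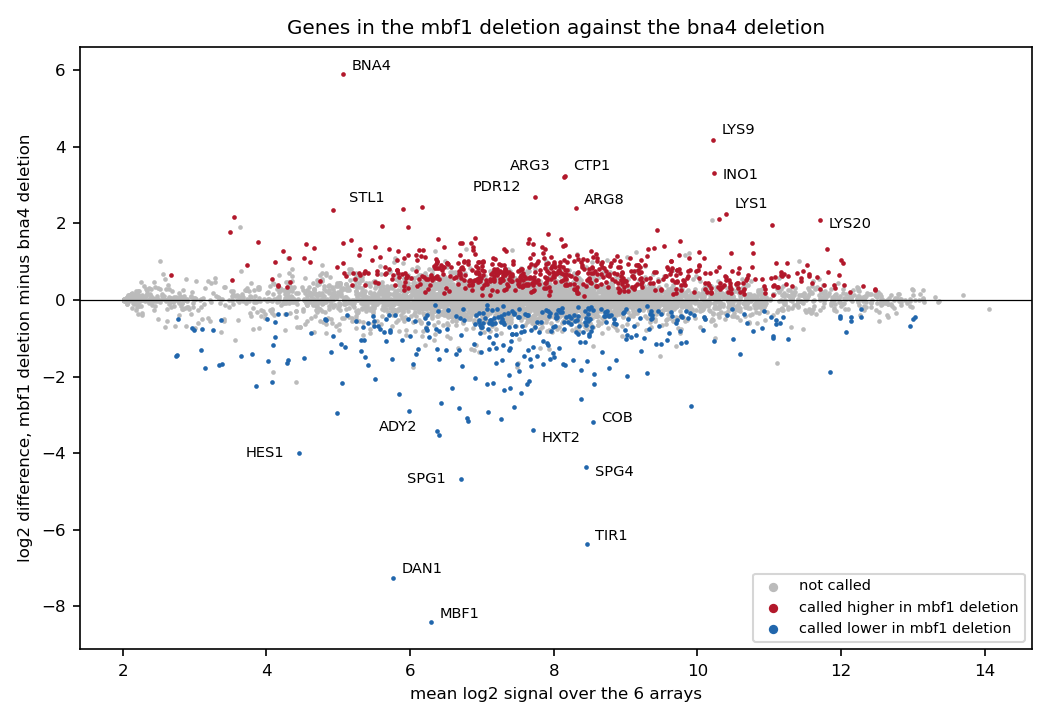
Each point is 1 gene, with the mean log2 signal over the 6 arrays on the horizontal axis and the log2 difference, mbf1 deletion minus bna4 deletion, on the vertical axis. Genes called higher in mbf1Δ (628) are red, those called lower (351) are blue and the rest grey, and the falls reach further from 0 than the rises once the deleted genes are set aside.

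Genes of lysine synthesis had the largest median difference of the 58 lists counted. Of 9 measured members, 8 rose in mbf1Δ and none fell, with a median difference of 1.95 beside 0.02 over all genes and 11.1% of all genes called higher. LYS9, saccharopine dehydrogenase of the late part of the pathway, had 12.29, 12.17 and 12.44 in mbf1Δ, against 8.02, 8.22 and 8.15 in bna4Δ. All mbf1Δ arrays lay far above all bna4Δ arrays, 18-fold, with a difference of 4.17 ± 0.091 (SE, adjusted p = 0.000245), the largest rise after BNA4. LYS20, homocitrate synthase at the first step, had 12.74, 12.76 and 12.76 in mbf1Δ, against 10.67, 10.75 and 10.58 in bna4Δ, a difference of 2.09 ± 0.048 (SE, adjusted p = 0.000245). LYS1, which makes lysine in the last step, had 11.33, 11.53 and 11.71 in mbf1Δ, against 9.32, 9.29 and 9.25 in bna4Δ, a difference of 2.23 ± 0.11 (SE, adjusted p = 0.0013). In each of these the gap between the strains exceeded the spread within either strain, but the largest rises were picked among genes without overlap. LYS12, homoisocitrate dehydrogenase, rose by 1.95 ± 0.13 (SE, adjusted p = 0.00318). LYS2, the aminoadipate reductase gene, had 11.66, 11.64 and 10.76 in mbf1Δ, against 8.93, 9.51 and 9.32 in bna4Δ, and mbf1Δ array 3 was the lowest of its group. Its difference was 2.10 ± 0.32 (SE, adjusted p = 0.02), and leaving out 1 array moved the adjusted p of LYS2 to 0.0742 (without bna4Δ array 3). The remaining members were looked up after their values were seen. LYS4, homoaconitase, rose by 1.84 (adjusted p = 0.0123), LYS21, the second homocitrate synthase, by 1.34 (adjusted p = 0.000851), and LYS14, the activator of the pathway, by 0.78 (adjusted p = 0.0188). LYS5, which activates the Lys2 enzyme, had -0.091 (adjusted p = 0.608).

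Of 8 arginine synthesis genes, 5 rose (62.5%, beside 11.1% of all genes) and none fell, with a median of 0.50. ARG3, ornithine carbamoyltransferase, had 9.71, 9.60 and 9.92 in mbf1Δ, against 6.51, 6.58 and 6.50 in bna4Δ. This 9.31-fold rise gave a difference of 3.22 ± 0.091 (SE, adjusted p = 0.000355). ARG8, acetylornithine aminotransferase, had 9.60, 9.38 and 9.55 in mbf1Δ, against 6.81, 7.29 and 7.21 in bna4Δ, a difference of 2.40 ± 0.15 (SE, adjusted p = 0.00275). Smaller rises were found for ARG1, argininosuccinate synthetase (0.92 ± 0.066 (SE, adjusted p = 0.00336)), ARG4, argininosuccinate lyase (0.60 ± 0.075 (SE, adjusted p = 0.0129)), and CPA1, the small subunit of carbamoyl phosphate synthetase (0.41 ± 0.051 (SE, adjusted p = 0.0129)). With 1 array left out, the adjusted p went up for ARG4 to 0.0533 (without bna4Δ array 1). The arginine breakdown genes moved the other way, with CAR1, arginase, at 8.33, 8.28 and 8.46 in mbf1Δ, against 10.45, 10.11 and 10.20 in bna4Δ. CAR1 fell by 1.90 ± 0.11 (SE, adjusted p = 0.00224) and CAR2, ornithine transaminase, fell by 1.58 ± 0.16 (SE, adjusted p = 0.00722). The mitochondrial citrate carrier gene CTP1 was among the largest rises, with 9.64, 9.76 and 9.90 in mbf1Δ, against 6.59, 6.51 and 6.52 in bna4Δ and a difference of 3.22 ± 0.075 (SE, adjusted p = 0.000245).

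Other amino acid pathways did not follow lysine and arginine. Histidine synthesis had none of 6 genes higher and 2 lower (33.3%, beside 6.21% of all genes), HIS5 (-0.49) and HIS4 (-0.38). Branched-chain synthesis had 1 of 11 higher (9.09%, beside 11.1% of all genes), ILV3 (0.28). It had 2 lower (18.2%, beside 6.21%), the transaminase genes BAT2 (-1.14 ± 0.076 (SE, adjusted p = 0.00303)) and BAT1 (-0.24). Aromatic synthesis had 2 of 15 higher (13.3%, beside 11.1% of all genes), the transaminase genes ARO9 (0.68) and ARO8 (0.51), and 4 higher without mbf1Δ array 3. In fits with 1 array fewer, the adjusted p went up for HIS5 to 0.102 (without bna4Δ array 2), HIS4 to 0.14 (without bna4Δ array 2), ILV3 to 0.0839 (without bna4Δ array 1), BAT1 to 0.105 (without bna4Δ array 2), ARO9 to 0.0506 (without bna4Δ array 2) and ARO8 to 0.0773 (without bna4Δ array 2). In serine, glycine and threonine metabolism 1 of 18 was called (5.56%, beside 17.3% of all genes). It was SER3, a phosphoglycerate dehydrogenase gene, which fell by 2.19 ± 0.23 (SE, adjusted p = 0.00859) with 7.57, 7.74 and 7.08 in mbf1Δ, against 9.36, 9.76 and 9.83 in bna4Δ. Sulfur assimilation and methionine synthesis had 5 of 31 higher (16.1%, beside 11.1% of all genes) and none lower, with a list median of -0.15. These were SAM2, S-adenosylmethionine synthetase (1.23 ± 0.083 (SE, adjusted p = 0.00305)), MET13 (0.79), MET6 (0.72), SAM3 (0.58) and CYS3 (0.54). Differences over the probe sets of SAM3 ranged from 0.028 to 0.58. With 1 array left out, the adjusted p went up for MET13 to 0.0652 (without bna4Δ array 2), MET6 to 0.0736 (without bna4Δ array 3), SAM3 to 0.137 (without bna4Δ array 2) and CYS3 to 0.116 (without bna4Δ array 3). Glutamate and nitrogen assimilation had 4 of 13 lower (30.8%, beside 6.21% of all genes) and none higher. GDH3, a glutamate dehydrogenase, fell and averaged 6.53 ± 0.075 in mbf1Δ and 8.73 ± 0.083 in bna4Δ, a difference of -2.20 ± 0.061 (SE, adjusted p = 0.00034). ASN1 (-0.61), GLN1, glutamine synthetase (-0.55), and ALT1 (-0.54) also fell, and leaving out 1 array moved the adjusted p of ASN1 to 0.05 (without bna4Δ array 1), GLN1 to 0.118 (without mbf1Δ array 2) and ALT1 to 0.0605 (without bna4Δ array 2).

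Gcn4 itself and its regulators showed no called difference apart from the deleted MBF1. The GCN4 transcript had 12.58, 12.59 and 12.16 in mbf1Δ, against 12.76, 12.85 and 12.87 in bna4Δ. The groups did not overlap, but the difference of -0.38 ± 0.14 (SE, adjusted p = 0.154) did not pass the test, with a 95% interval of -0.74 to -0.022, and mbf1Δ array 3 was the lowest. Gcn4 is controlled mainly by translation, which arrays do not measure. GCN2, the kinase that senses uncharged tRNA, differed by 0.51 ± 0.21 (SE, adjusted p = 0.205), GCN1, its partner, by 0.76 ± 0.21 (SE, adjusted p = 0.0876), and SPT15, the TATA-binding protein, by -0.58 ± 0.16 (SE, adjusted p = 0.0889). Both GCN1 and GCN2 are over 3000 bases long. Differences over the probe sets of GCN1 ranged from -0.042 to 2.69, and none of them was called. GCN3, a subunit of the factor eIF2B, differed by 0.18 (adjusted p = 0.265), GCN5, a histone acetyltransferase, by 0.0079 (adjusted p = 1) and GCN20 by 0.26 (adjusted p = 0.0566). Without mbf1Δ array 3, GCN4 was called lower (-0.24, adjusted p = 0.0406) and SPT15 lower (-0.42, adjusted p = 0.0364), while GCN1 (0.94, adjusted p = 0.0374), GCN2 (0.72, adjusted p = 0.0338) and GCN20 (0.31, adjusted p = 0.0264) were called higher.

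**Figure D2:**
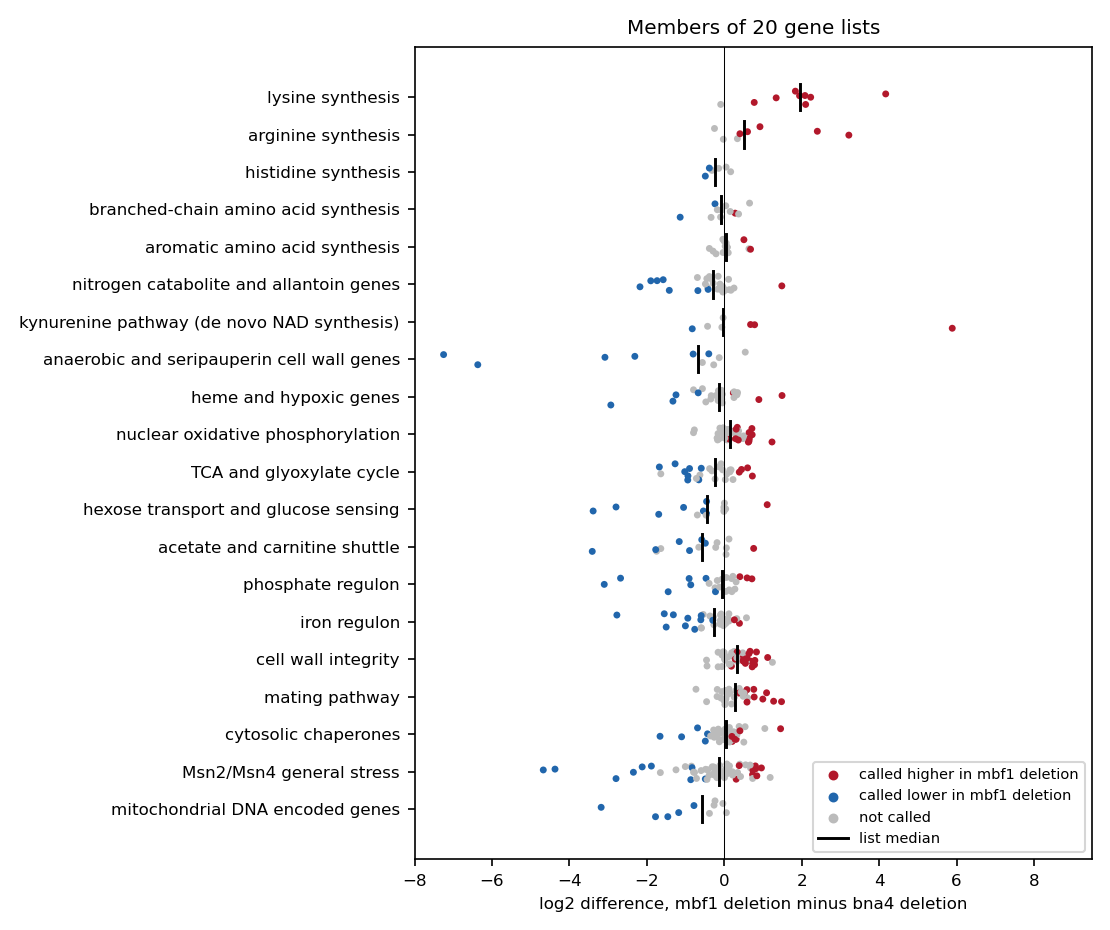
Each row is a gene list and each point a measured member, with its log2 difference, mbf1 deletion minus bna4 deletion, on the horizontal axis and the list median as a bar. The lysine row lies to the right of 0 with a median of 1.95, the arginine row spreads to 3.22, and the anaerobic cell wall row reaches -7.25.

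Besides BNA4, 2 members of the kynurenine pathway rose in mbf1Δ and 1 fell. The list held 7 genes, with 3 higher (42.9%, beside 11.1% of all genes) and 1 lower (14.3%, beside 6.21%). Its median was -0.028, and BNA4 is one of the 3 by deletion. BNA1, 3-hydroxyanthranilate dioxygenase, which acts after Bna4, had 10.20, 10.13 and 10.01 in mbf1Δ, against 9.47, 9.24 and 9.26 in bna4Δ, a difference of 0.79 ± 0.085 (SE, adjusted p = 0.00911). BNA5, kynureninase, had 8.95, 8.86 and 9.16 in mbf1Δ, against 8.30, 8.41 and 8.22 in bna4Δ, a difference of 0.68 ± 0.098 (SE, adjusted p = 0.0183). BNA2, the dioxygenase that opens the tryptophan ring at the start of the pathway, had 7.28, 7.18 and 7.70 in mbf1Δ, against 8.31, 8.22 and 8.10 in bna4Δ, a difference of -0.83 ± 0.16 (SE, adjusted p = 0.0375). The groups did not overlap for any of these. BNA3 (-0.061), BNA6 (-0.028) and BNA7 (-0.43) were not called, with adjusted p of 0.985, 0.862 and 0.341. Leaving out 1 array moved the adjusted p of BNA5 to 0.0684 (without bna4Δ array 1) and BNA2 to 0.131 (without bna4Δ array 2).

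Few genes of NAD salvage were called. Of 18 measured, 1 rose (5.56%, beside 11.1% of all genes) and none fell, and 3 had an unadjusted p under 0.05 by limma. Without mbf1Δ array 3, UTR1, an NAD kinase gene, was called lower (-0.58, adjusted p = 0.03). The gene that rose was NRT1, the nicotinamide riboside transporter, with 6.63, 6.56 and 6.70 in mbf1Δ, against 5.50, 5.53 and 5.70 in bna4Δ and a difference of 1.05 ± 0.07 (SE, adjusted p = 0.00303). NPT1, which turns nicotinic acid into its mononucleotide, averaged 10.32 ± 0.21 in mbf1Δ and 10.16 ± 0.13 in bna4Δ (difference 0.16 ± 0.13 (SE, adjusted p = 0.503)). PNC1, nicotinamidase, averaged 11.32 ± 0.12 in mbf1Δ and 11.23 ± 0.18 in bna4Δ, TNA1, the nicotinic acid permease, averaged 8.85 ± 0.18 in mbf1Δ and 9.09 ± 0.083 in bna4Δ, and NMA1, an adenylyltransferase, averaged 8.80 ± 0.16 in mbf1Δ and 8.89 ± 0.17 in bna4Δ. For these 4 genes the arrays of the strains overlapped, with adjusted p from 0.226 to 0.671. None of 10 sirtuin and partner genes was called, with 4 at an unadjusted p under 0.05 and 1 called when mbf1Δ array 3 was left out. SIR2, the sirtuin of telomeres and the silent mating loci, averaged 7.46 ± 0.14 in mbf1Δ and 7.39 ± 0.058 in bna4Δ (difference 0.072 ± 0.082 (SE, adjusted p = 0.623), 95% interval -0.15 to 0.29). HST1, which represses the BNA genes, averaged 9.01 ± 0.042 in mbf1Δ and 8.88 ± 0.052 in bna4Δ (difference 0.13 ± 0.037 (SE, adjusted p = 0.101)). HST3 (0.89 ± 0.19 (SE, adjusted p = 0.0527)) and SIR3 (0.57 ± 0.12 (SE, adjusted p = 0.0507)) came closest to the threshold.

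The largest falls were in cell wall mannoprotein genes that yeast normally uses without oxygen. Of 10 measured members of the DAN, TIR and PAU list, 6 fell and none rose, with a median of -0.68 and 6.21% of all genes called lower. DAN1 had 2.14, 2.14 and 2.14 in mbf1Δ, against 9.63, 9.23 and 9.30 in bna4Δ. The mbf1Δ value was the same on all arrays and close to the lowest deposited value, so the difference of -7.25 ± 0.12 (SE, adjusted p = 0.000204) is best read as a bound. TIR1 had 5.21, 5.27 and 5.35 in mbf1Δ, against 11.58, 11.63 and 11.72 in bna4Δ, 82.5-fold lower, a difference of -6.37 ± 0.055 (SE, adjusted p = 2.11e-05). TIR3 had 5.29, 5.36 and 5.12 in mbf1Δ, against 8.63, 8.17 and 8.21 in bna4Δ, a difference of -3.08 ± 0.15 (SE, adjusted p = 0.00148). The groups were far apart in all of these, with bna4Δ high, but the largest falls were picked among genes without overlap. TIR4 fell by 2.31 ± 0.11 (SE, adjusted p = 0.00145) and PAU4 fell by 0.80 ± 0.047 (SE, adjusted p = 0.00227). Members of these families have similar sequences, so the signal of one probe set can hold that of relatives.

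Of 26 genes set by heme and oxygen, 3 rose (11.5%, beside 11.1% of all genes) and 4 fell (15.4%, beside 6.21%). ANB1, the form of eIF5A used without oxygen, had 5.51, 5.45 and 5.90 in mbf1Δ, against 8.98, 8.30 and 8.37 in bna4Δ, a difference of -2.93 ± 0.24 (SE, adjusted p = 0.0047). HEM13, coproporphyrinogen oxidase, fell by 1.25 ± 0.12 (SE, adjusted p = 0.00702) and AAC3, the ADP/ATP carrier used without oxygen, fell by 1.32 ± 0.23 (SE, adjusted p = 0.0277). YHB1, flavohemoglobin, had 11.50, 11.47 and 11.57 in mbf1Δ, against 10.01, 10.06 and 9.996 in bna4Δ and rose by 1.49 ± 0.036 (SE, adjusted p = 0.000247), although its 4 probe sets ranged from 0 to 2.06. CYB5, cytochrome b5, rose by 0.89 ± 0.14 (SE, adjusted p = 0.0219). Fits without 1 array moved the adjusted p of AAC3 to 0.11 (without bna4Δ array 2) and CYB5 to 0.0723 (without bna4Δ array 1).

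Of 28 sterol synthesis genes, 3 rose (10.7%, beside 11.1% of all genes) and 4 fell (14.3%, beside 6.21%). HES1, an oxysterol-binding protein homologue, had 2.40, 2.21 and 2.79 in mbf1Δ, against 6.17, 6.51 and 6.68 in bna4Δ, a difference of -3.99 ± 0.21 (SE, adjusted p = 0.00182). UPC2, the activator of sterol genes and of DAN and TIR genes, had 4.74, 4.69 and 4.47 in mbf1Δ, against 6.28, 5.77 and 6.31 in bna4Δ, a difference of -1.49 ± 0.18 (SE, adjusted p = 0.012). HMG1, the HMG-CoA reductase used with oxygen and a gene over 3000 bases, rose by 1.05 ± 0.067 (SE, adjusted p = 0.00275). ERG5, a desaturase, rose by 1.04 ± 0.10 (SE, adjusted p = 0.00773), whereas ERG3 (-0.74) and ERG25 (-0.80) fell. With 1 array left out, the adjusted p went up for ERG25 to 0.118 (without bna4Δ array 3). FHN1, a plasma membrane protein gene, fell and averaged 4.64 ± 0.23 in mbf1Δ and 8.15 ± 0.15 in bna4Δ (difference -3.52 ± 0.15 (SE, adjusted p = 0.000978)), and SPS100, a spore wall gene, fell and averaged 5.23 ± 0.17 in mbf1Δ and 8.39 ± 0.15 in bna4Δ (difference -3.17 ± 0.12 (SE, adjusted p = 0.000813)).

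**Figure D3:**
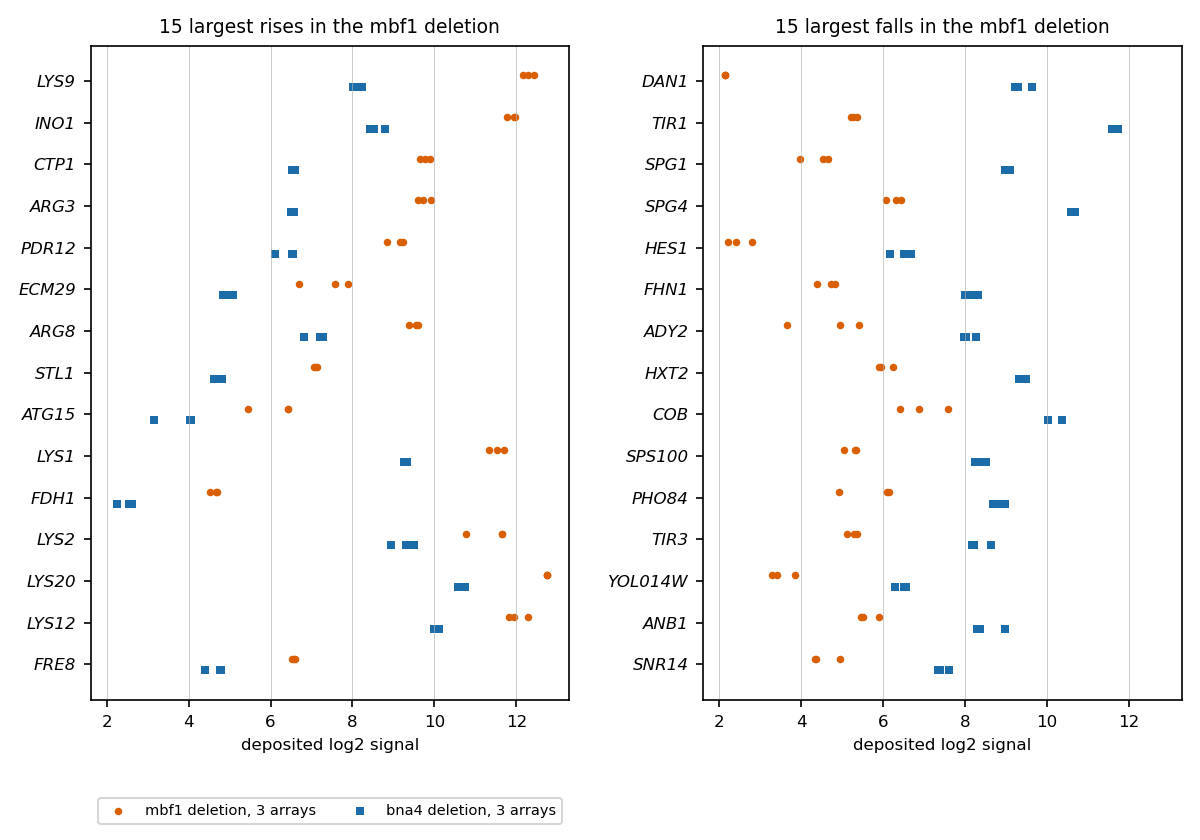
The deposited log2 signal of each array is on the horizontal axis for the 15 largest rises and the 15 largest falls in mbf1Δ among called genes whose groups do not overlap, 3 mbf1Δ and 3 bna4Δ points a gene. DAN1 and TIR1 show the widest gaps among the falls and LYS9 among the rises, and ADY2 and ECM29 show the spread that mbf1Δ array 3 adds.

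Of 17 hexose transport and glucose sensing genes, 8 fell in mbf1Δ (47.1%, beside 6.21% of all genes) and 1 rose (5.88%, beside 11.1%), with a median of -0.46. HXT2, a high-affinity glucose carrier, had 5.95, 5.89 and 6.24 in mbf1Δ, against 9.48, 9.42 and 9.32 in bna4Δ, 10.4-fold lower, a difference of -3.39 ± 0.11 (SE, adjusted p = 0.000536). HXT5, a carrier of slow-growing cells, had 5.96, 6.11 and 6.09 in mbf1Δ, against 8.86, 8.93 and 8.76 in bna4Δ, a difference of -2.79 ± 0.064 (SE, adjusted p = 0.000245). HXT3, a low-affinity carrier, fell by 1.69 ± 0.20 (SE, adjusted p = 0.0106), and MTH1, which holds HXT genes off without glucose, fell by 1.05 ± 0.05 (SE, adjusted p = 0.0013). The strains did not overlap for any of them, which for HXT2 was a condition of its place among the largest falls. RGT1, the repressor of HXT genes, was the one member that rose, by 1.11 ± 0.21 (SE, adjusted p = 0.0378). RGT1 is also the one member of 3000 bases or more. Leaving out 1 array moved its adjusted p to 0.136 (without bna4Δ array 2). HXT genes are close relatives, and signal of one may hold that of another.

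Several genes for acetate use and glucose synthesis were lower as well. Of 15 acetate and carnitine genes, 6 fell (40%, beside 6.21% of all genes) and 1 rose (6.67%, beside 11.1%), with a median of -0.58. ADY2, the acetate permease, had 4.95, 5.41 and 3.65 in mbf1Δ, against 8.27, 8.01 and 7.96 in bna4Δ. The mbf1Δ arrays varied more than the bna4Δ arrays, with array 3 lowest, and the difference was -3.41 ± 0.50 (SE, adjusted p = 0.0186). Its relatives ATO3 (-1.77 ± 0.053 (SE, adjusted p = 0.000425)) and ATO2 (-1.16 ± 0.088 (SE, adjusted p = 0.00401)) fell too. The acetyl-CoA synthetase genes went opposite ways, ACS1 with -0.90 ± 0.074 (SE, adjusted p = 0.0047) and ACS2, the form needed on glucose, with 0.76 ± 0.039 (SE, adjusted p = 0.00164). In the citric acid and glyoxylate list, 8 of 27 fell (29.6%, beside 6.21% of all genes) and 4 rose (14.8%, beside 11.1%). PCK1, the first enzyme set aside for glucose synthesis, had 7.11, 6.69 and 6.15 in mbf1Δ, against 8.26, 8.29 and 8.43 in bna4Δ, a difference of -1.68 ± 0.26 (SE, adjusted p = 0.0221). SFC1, the succinate and fumarate carrier (-1.27 ± 0.21 (SE, adjusted p = 0.0257)), MDH2, cytosolic malate dehydrogenase (-1.02 ± 0.067 (SE, adjusted p = 0.0029)), PYC1, pyruvate carboxylase (-0.94 ± 0.12 (SE, adjusted p = 0.0131)), and MLS1, malate synthase (-0.94 ± 0.15 (SE, adjusted p = 0.0252)), also fell. ADH2, which turns ethanol to acetaldehyde, fell by 1.54 ± 0.12 (SE, adjusted p = 0.00432). In fits with 1 array fewer, the adjusted p went up for ADY2 to 0.0788 (without bna4Δ array 2), PCK1 to 0.0887 (without bna4Δ array 2), SFC1 to 0.0876 (without bna4Δ array 3), PYC1 to 0.0604 (without bna4Δ array 2) and MLS1 to 0.0833 (without mbf1Δ array 1). In glycolysis and fermentation, 5 of 29 rose (17.2%, beside 11.1% of all genes) and 2 fell (6.9%, beside 6.21%). TDH1, a glyceraldehyde phosphate dehydrogenase, rose by 1.05 ± 0.073 (SE, adjusted p = 0.00318) and PDC5, a pyruvate decarboxylase, by 1.22 ± 0.11 (SE, adjusted p = 0.00645).

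Of 42 nuclear genes of oxidative phosphorylation, 14 rose (33.3%, beside 11.1% of all genes) and none fell, with a median of 0.15. The fit without mbf1Δ array 3 called 9 higher. CYC1, the main cytochrome c, had 11.31, 10.80 and 11.14 in mbf1Δ, against 10.08, 9.76 and 9.70 in bna4Δ, a rise of 1.23 ± 0.18 (SE, adjusted p = 0.0185). The next largest were RIP1, the Rieske protein of complex III (0.72 ± 0.14 (SE, adjusted p = 0.038)), CYT1, cytochrome c1 (0.71 ± 0.11 (SE, adjusted p = 0.0203)), COX12 (0.69 ± 0.12 (SE, adjusted p = 0.0273)) and COX5A (0.65 ± 0.066 (SE, adjusted p = 0.00786)), subunits of cytochrome c oxidase. With 1 array left out, the adjusted p went up for CYC1 to 0.0812 (without bna4Δ array 2), RIP1 to 0.135 (without bna4Δ array 2), CYT1 to 0.0722 (without bna4Δ array 1) and COX12 to 0.105 (without bna4Δ array 2). Genes of mitochondrial DNA showed the opposite sign, 5 of 10 lower (50%, beside 6.21% of all genes) and none higher, with a median of -0.58. Most of this list was weakly detected, with median signals of 2.68 in mbf1Δ and 3.76 in bna4Δ beside a lowest deposited value of 2.02. The nuclear list had median signals of 10.9 and 10.6. COB, cytochrome b, had 6.87, 6.41 and 7.58 in mbf1Δ, against 10.02, 10.35 and 10.02 in bna4Δ, a difference of -3.18 ± 0.34 (SE, adjusted p = 0.00872), and its 2 probe sets both fell. ATP8, at the floor on every mbf1Δ array, averaged 2.02 ± 0 in mbf1Δ and 3.47 ± 0.19 in bna4Δ, a difference of -1.46 ± 0.10 (SE, adjusted p = 0.00318) that is a bound, and VAR1, a mitochondrial ribosomal protein, fell by 1.18 ± 0.044 (SE, adjusted p = 0.000767) in 1 of its 2 probe sets. SCEI, the omega intron endonuclease, averaged 2.27 ± 0.079 in mbf1Δ and 4.04 ± 0.31 in bna4Δ (difference -1.77 ± 0.17 (SE, adjusted p = 0.00722)) and ATP6 averaged 2.60 ± 0.11 in mbf1Δ and 3.39 ± 0.11 in bna4Δ (difference -0.78 ± 0.083 (SE, adjusted p = 0.00872)). COX1 (-0.24) and OLI1 (-0.26), looked up after their values were seen, were not called, with adjusted p of 0.113 and 0.249. The COB gene holds introns with their own reading frames, and their probe sets may read several transcripts.

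Parts of the nitrogen, phosphate and iron regulons were lower in mbf1Δ, and most members of each list were not called. Of 27 nitrogen catabolite genes, 7 fell (25.9%, beside 6.21% of all genes) and 1 rose (3.7%, beside 11.1%), with a median of -0.28. PUT1, proline oxidase, had 6.02, 5.94 and 6.23 in mbf1Δ, against 8.23, 8.18 and 8.31 in bna4Δ, a difference of -2.18 ± 0.088 (SE, adjusted p = 0.000868). MEP2, the ammonium permease, fell by 1.73 ± 0.21 (SE, adjusted p = 0.0114), and GAP1, the general amino acid permease, fell by 0.68 ± 0.092 (SE, adjusted p = 0.0151). OPT2, an oligopeptide transporter gene, rose by 1.49 ± 0.10 (SE, adjusted p = 0.00328). Of 19 amino acid permeases, 6 fell (31.6%, beside 6.21% of all genes) and 3 rose (15.8%, beside 11.1%). Falls were found for DIP5, the glutamate and aspartate permease (-1.40 ± 0.19 (SE, adjusted p = 0.0153)), and AGP1 (-1.32 ± 0.12 (SE, adjusted p = 0.00625)), and a rise for ALP1, a basic amino acid permease (1.505 ± 0.10 (SE, adjusted p = 0.00318)). Leaving out 1 array moved the adjusted p of MEP2 to 0.0547 (without bna4Δ array 2), GAP1 to 0.0629 (without bna4Δ array 3) and DIP5 to 0.0695 (without bna4Δ array 2).

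Of 23 phosphate regulon genes, 7 fell (30.4%, beside 6.21% of all genes), 3 rose (13%, beside 11.1%) and 13 were not called. The list median was -0.054. In the fit without mbf1Δ array 3, 5 were called lower and 4 higher, and the median was 0.041. PHO84, the high-affinity phosphate carrier, had 4.93, 6.09 and 6.14 in mbf1Δ, against 8.83, 8.96 and 8.67 in bna4Δ. Array 1 of mbf1Δ was the lowest, and the difference was -3.10 ± 0.38 (SE, adjusted p = 0.012). PHO89, the sodium-coupled phosphate carrier, had 5.10, 5.17 and 5.01 in mbf1Δ, against 7.66, 7.71 and 7.94 in bna4Δ, a difference of -2.68 ± 0.091 (SE, adjusted p = 0.000602). For both carriers the bna4Δ arrays were the higher ones. SPL2, which holds down low-affinity phosphate carriers, was at the floor in mbf1Δ, at least 2.73-fold lower (adjusted p = 0.000675). PHO8, the vacuolar phosphatase (-0.91 ± 0.14 (SE, adjusted p = 0.0215)), and PHM7 (-0.86 ± 0.17 (SE, adjusted p = 0.0383)) fell as well. Fits without 1 array moved the adjusted p of PHO84 to 0.0585 (without bna4Δ array 2), PHO8 to 0.0908 (without bna4Δ array 2) and PHM7 to 0.123 (without bna4Δ array 3).

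Of 31 iron regulon genes, 10 fell (32.3%, beside 6.21% of all genes) and 2 rose (6.45%, beside 11.1%), with a median of -0.27. FIT3, a mannoprotein that holds siderophores in the cell wall, had 8.34, 8.57 and 8.68 in mbf1Δ, against 11.29, 11.37 and 11.25 in bna4Δ, a difference of -2.77 ± 0.10 (SE, adjusted p = 0.000749). SIT1 had 6.85, 7.28 and 7.39 in mbf1Δ, against 8.78, 8.68 and 8.69 in bna4Δ, a difference of -1.55 ± 0.16 (SE, adjusted p = 0.00773), and ENB1, like SIT1 a siderophore carrier, fell by 1.31 ± 0.12 (SE, adjusted p = 0.00656). The groups did not overlap for these 3 genes. TIS11, which degrades transcripts when iron is short, fell by 1.499 ± 0.30 (SE, adjusted p = 0.0397) and ISU1, the scaffold of iron-sulfur clusters, fell by 1.003 ± 0.21 (SE, adjusted p = 0.0478), and leaving out 1 array moved the adjusted p of TIS11 to 0.138 (without bna4Δ array 2) and ISU1 to 0.149 (without bna4Δ array 2). In the zinc regulon 4 of 17 fell (23.5%, beside 6.21% of all genes) and 3 rose (17.6%, beside 11.1%). IZH4, a membrane protein gene of the zinc and sterol response, had 6.15, 6.18 and 6.41 in mbf1Δ, against 8.60, 8.57 and 8.45 in bna4Δ, a difference of -2.29 ± 0.089 (SE, adjusted p = 0.000849), and IZH1 (-0.87) and IZH2 (-0.81) fell as well. The adjusted p went up, with 1 array left out, for IZH1 to 0.061 (without bna4Δ array 2) and IZH2 to 0.0699 (without bna4Δ array 2). FRE8, a homologue of ferric reductases, went the other way and was among the 15 largest rises, with 6.61, 6.58 and 6.52 in mbf1Δ, against 4.78, 4.39 and 4.78 in bna4Δ and a difference of 1.92 ± 0.12 (SE, adjusted p = 0.00276).

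Of 29 phospholipid and fatty acid genes, 9 rose (31%, beside 11.1% of all genes), 1 fell (3.45%, beside 6.21%) and 19 were not called, with a median of 0.19. Calls numbered 13 higher and 3 lower without mbf1Δ array 3. INO1, which makes inositol phosphate, had 11.94, 11.77 and 11.97 in mbf1Δ, against 8.80, 8.43 and 8.52 in bna4Δ, 9.92-fold higher, a difference of 3.31 ± 0.12 (SE, adjusted p = 0.00069). PSD1, phosphatidylserine decarboxylase, had 8.84, 8.77 and 8.88 in mbf1Δ, against 7.67, 7.46 and 7.13 in bna4Δ, a difference of 1.41 ± 0.15 (SE, adjusted p = 0.00882). CHO2, the first methyltransferase towards phosphatidylcholine, rose by 1.09 ± 0.085 (SE, adjusted p = 0.00429). FAS1, a fatty acid synthase subunit (0.96 ± 0.15 (SE, adjusted p = 0.0215)), and CKI1, choline kinase (0.79 ± 0.13 (SE, adjusted p = 0.0232)), also rose. In fits with 1 array fewer, the adjusted p went up for FAS1 to 0.0906 (without bna4Δ array 2) and CKI1 to 0.0906 (without bna4Δ array 2). FAS1 had 8 probe sets with differences from -0.12 to 2.30. In the peroxisome list, 6 of 31 fell (19.4%, beside 6.21% of all genes) and 4 rose (12.9%, beside 11.1%). CTA1, peroxisomal catalase, had 4.82, 4.55 and 4.47 in mbf1Δ, against 7.06, 7.10 and 7.08 in bna4Δ, a difference of -2.47 ± 0.1 (SE, adjusted p = 0.000868), and POT1, thiolase, fell by 1.31 ± 0.083 (SE, adjusted p = 0.00275).

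Among the largest rises were also genes for transport of acids and glycerol. PDR12, the pump for weak organic acids, had 9.16, 9.23 and 8.84 in mbf1Δ, against 6.12, 6.55 and 6.52 in bna4Δ, a difference of 2.68 ± 0.17 (SE, adjusted p = 0.00276). STL1, the glycerol symporter, had 7.13, 7.09 and 7.05 in mbf1Δ, against 4.62, 4.82 and 4.68 in bna4Δ, a difference of 2.39 ± 0.058 (SE, adjusted p = 0.000247). FDH1, formate dehydrogenase, had 4.53, 4.69 and 4.68 in mbf1Δ, against 2.56, 2.26 and 2.62 in bna4Δ, a difference of 2.15 ± 0.11 (SE, adjusted p = 0.00181), and its 3 probe sets ranged from 0.17 to 2.15. ATG15, a vacuolar lipase, had 6.42, 6.43 and 5.46 in mbf1Δ, against 4.07, 3.15 and 4.03 in bna4Δ. The arrays of both strains scattered, the difference was 2.35 ± 0.41 (SE, adjusted p = 0.0291), and leaving out 1 array moved the adjusted p of ATG15 to 0.092 (without mbf1Δ array 2).

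Of 59 Msn2 and Msn4 targets and stationary phase genes, 9 fell (15.3%, beside 6.21% of all genes) and 8 rose (13.6%, beside 11.1%), with a median of -0.14. SPG1, needed in stationary phase, had 3.96, 4.53 and 4.64 in mbf1Δ, against 9.09, 8.98 and 9.09 in bna4Δ, 25.5-fold lower, a difference of -4.67 ± 0.20 (SE, adjusted p = 0.000978). SPG4, a second such gene, had 6.42, 6.07 and 6.30 in mbf1Δ, against 10.66, 10.67 and 10.59 in bna4Δ, a difference of -4.37 ± 0.1 (SE, adjusted p = 0.000245). The desiccation genes SIP18 (-2.35 ± 0.19 (SE, adjusted p = 0.00432)) and GRE1 (-2.12 ± 0.20 (SE, adjusted p = 0.00702)) fell too, with no overlap. Of 39 oxidative defence genes, 5 rose (12.8%, beside 11.1% of all genes) and 5 fell (12.8%, beside 6.21%). TSA2, a peroxiredoxin, differed by -1.68 ± 0.12 (SE, adjusted p = 0.0036). GRE2, a methylglyoxal reductase, rose by 1.59 ± 0.073 (SE, adjusted p = 0.00122) and SOD2, mitochondrial superoxide dismutase, by 0.69 ± 0.065 (SE, adjusted p = 0.00652).

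Chaperones, which are known to alter polyglutamine aggregation in yeast, had 6 of 48 higher (12.5%, beside 11.1% of all genes) and 5 lower (10.4%, beside 6.21%), with a median of 0.033. SSA4, an inducible Hsp70, had 8.39, 8.46 and 8.45 in mbf1Δ, against 6.94, 7.003 and 6.99 in bna4Δ, with narrow spread in both strains and a difference of 1.46 ± 0.027 (SE, adjusted p = 0.000204). APJ1, a J-domain protein, had 6.33, 6.74 and 6.03 in mbf1Δ, against 8.03, 8.02 and 8.02 in bna4Δ, a difference of -1.66 ± 0.19 (SE, adjusted p = 0.0107). HSP30, a plasma membrane heat shock protein, fell by 1.101 ± 0.14 (SE, adjusted p = 0.0138), XDJ1, a J-domain protein, fell by 0.69 ± 0.064 (SE, adjusted p = 0.00648) and HSP12 fell by 0.49 ± 0.094 (SE, adjusted p = 0.0378). With 1 array left out, the adjusted p went up for APJ1 to 0.0546 (without bna4Δ array 2), HSP30 to 0.0552 (without bna4Δ array 2) and HSP12 to 0.127 (without bna4Δ array 3). HSP104, the disaggregase needed for prions, was looked up after its value was seen and averaged 10.89 ± 0.20 in mbf1Δ and 10.35 ± 0.074 in bna4Δ (difference 0.54 ± 0.12 (SE, adjusted p = 0.051)). Proteasome genes had 10 of 42 higher (23.8%, beside 11.1% of all genes) and 1 lower (2.38%, beside 6.21%) with a median of 0.15. PRE8 (0.52 ± 0.056 (SE, adjusted p = 0.00911)) and PUP3 (0.49 ± 0.085 (SE, adjusted p = 0.029)) are subunits of the core particle, and leaving out 1 array moved the adjusted p of PUP3 to 0.0974 (without bna4Δ array 3). ECM29, which binds the proteasome, had 7.89, 7.57 and 6.69 in mbf1Δ, against 5.09, 4.84 and 4.93 in bna4Δ, a difference of 2.43 ± 0.34 (SE, adjusted p = 0.0171), but its 8 probe sets ranged from -0.030 to 2.43, and leaving out 1 array moved the adjusted p of ECM29 to 0.077 (without bna4Δ array 2).

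Differences went with the length of the gene. Of 477 genes of 3000 bases or more, 197 rose in mbf1Δ (41.3%) and 7 fell (1.47%), with a median of 0.52. Of 5179 shorter genes, 431 rose (8.32%) and 344 fell (6.64%), with a median of 0.0015. The 347 genes from 3000 to under 4500 bases had medians, relative to the bna4Δ mean, of 0.62, 0.58 and 0.48 on the mbf1Δ arrays and of -0.058, 0.033 and 0.041 on the bna4Δ arrays. In the 43 genes of 6000 bases or more the medians were 0.58, 0.65 and 0.15 in mbf1Δ and -0.11, 0.060 and 0.032 in bna4Δ. Over all 212 probe sets of these longest genes, the medians were only 0.0077, 0.0018 and 0.073 in mbf1Δ and 0 on each bna4Δ array. Of those probe sets 13.2% were called higher, beside 23.3% of the genes. Taken by gene, every mbf1Δ array thus lay above every bna4Δ array in both classes, while mbf1Δ array 3 lay closer to the bna4Δ arrays in the longest class. Restricted to genes under 3000 bases, the fit called 949 of 5562 probe sets, 531 higher and 418 lower. The difference in signal between the actin control sets for the 3' and 5' ends was -0.13, 0.062 and -0.33 on the mbf1Δ arrays, against 0.16, 0.11 and 0.10 on the bna4Δ arrays. The same difference for the control sets of YER148w was 0.036, 0.194 and 0.456 on the mbf1Δ arrays, against 0.39, 0.456 and 0.0876 on the bna4Δ arrays, and for those of YER022w 2.05, 2.32 and 1.96 on the mbf1Δ arrays, against 2.02, 2.23 and 2.22 on the bna4Δ arrays. The strains did not overlap for actin and overlapped for the other controls. Among the 15 largest rises, PDR12, ECM29 and LYS2 are genes of 3000 bases or more. The part of RNA quality in the length pattern was not tested.

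**Figure D4:**
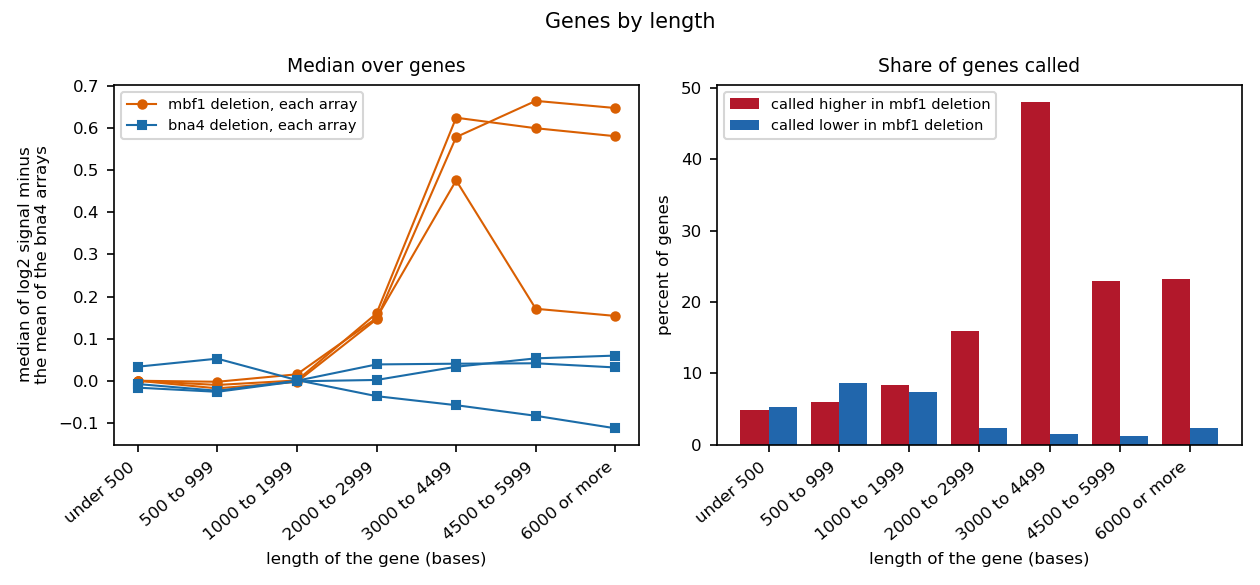
Left, the median over genes of the log2 signal minus the bna4Δ mean, for each array, by length of the gene in bases. Right, the percent of genes called higher or lower in mbf1Δ, with the rises at 48.1% in genes from 3000 to under 4500 bases and at 4.83% under 500 bases.

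Probe sets along one gene also disagreed. Of 315 genes with several probe sets, 99 had at least 1 called, and 3 had probe sets called in both directions, GSC2, MYO1 and SWR1. For GSC2, a glucan synthase gene, differences over its probe sets ranged from -3.80 to 2.42, and the one with the highest mean signal gave 1.25. Calls for genes with several probe sets therefore depend on the probe set taken. Genes with 1 probe set gave 1186 calls among 5341 tested, with 733 higher and 453 lower.

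Of 41 cell wall integrity genes, 16 rose (39%, beside 11.1% of all genes) and none fell, with a median of 0.33. Of the 35 members under 3000 bases, 14 rose, beside 8.32% of all genes of that length. GSC2, a longer member, was not called at its probe set with the highest mean signal (1.25). Other probe sets of GSC2 were called lower (-3.80 and -3.56) and higher (2.42). YPS3, a cell surface protease, had 9.21, 9.21 and 8.90 in mbf1Δ, against 7.94, 7.99 and 8.02 in bna4Δ, a difference of 1.12 ± 0.099 (SE, adjusted p = 0.00575). GAS5, a glucanosyltransferase (0.79 ± 0.079 (SE, adjusted p = 0.00752)), KTR2, a mannosyltransferase (0.78 ± 0.07 (SE, adjusted p = 0.00579)), ECM33 (0.72 ± 0.09 (SE, adjusted p = 0.0126)) and CHS3, chitin synthase, a gene over 3000 bases (0.83 ± 0.14 (SE, adjusted p = 0.0256)), rose as well. The other probe set of ECM33 gave 0.21 (adjusted p = 0.193) and was not called. Leaving out 1 array moved the adjusted p of ECM33 to 0.0564 (without bna4Δ array 3) and CHS3 to 0.0975 (without bna4Δ array 3).

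Of 36 mating genes, 10 rose (27.8%, beside 11.1% of all genes) and none fell, with a median of 0.28. AGA1, the anchor of the a-agglutinin, had 7.68, 7.56 and 7.52 in mbf1Δ, against 6.31, 5.93 and 6.08 in bna4Δ, a difference of 1.48 ± 0.11 (SE, adjusted p = 0.00401), and SST2, which ends pheromone signalling, rose by 1.09 ± 0.12 (SE, adjusted p = 0.00997). Of 7 genes specific to mating type a, 5 rose (71.4%, beside 11.1% of all genes), and of these STE6 is over 3000 bases long. AGA2, the binding subunit of the a-agglutinin, had 9.49, 9.32 and 9.55 in mbf1Δ, against 8.28, 8.29 and 8.32 in bna4Δ, a difference of 1.15 ± 0.068 (SE, adjusted p = 0.00232), and ASG7 (1.28 ± 0.12 (SE, adjusted p = 0.00714)), BAR1, the protease that cuts alpha-factor (0.77 ± 0.066 (SE, adjusted p = 0.00536)), STE6, the exporter of a-factor (0.64 ± 0.092 (SE, adjusted p = 0.0183)), and MFA2 (0.44 ± 0.083 (SE, adjusted p = 0.0364)) also rose. STE3, the receptor of alpha cells, averaged 4.62 ± 0.20 in mbf1Δ and 3.63 ± 0.18 in bna4Δ (difference 0.9966 ± 0.15 (SE, adjusted p = 0.0186)), while SAG1, the alpha-agglutinin, averaged 5.59 ± 0.26 in mbf1Δ and 5.61 ± 0.057 in bna4Δ (difference -0.024 ± 0.14 (SE, adjusted p = 0.998)). Fits without 1 array moved the adjusted p of STE6 to 0.0667 (without bna4Δ array 1), MFA2 to 0.133 (without bna4Δ array 2) and STE3 to 0.0821 (without bna4Δ array 2).

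Among cell cycle genes, 10 of 31 of G1 and S (32.3%) and 10 of 27 of G2 and M (37%) rose, beside 11.1% of all genes. None was lower, and the medians were 0.37 and 0.46. Some are long, and of those under 3000 bases 7 of 27 and 5 of 21 rose, beside 8.32% of all genes of that length. SVS1, a cell wall gene of G1, had 10.98, 10.99 and 11.01 in mbf1Δ, against 10.28, 10.18 and 10.04 in bna4Δ, a difference of 0.83 ± 0.066 (SE, adjusted p = 0.00437). RNR1, ribonucleotide reductase, rose by 0.71 ± 0.072 (SE, adjusted p = 0.00786), and the G1 activator SWI4, a gene over 3000 bases, by 0.80 ± 0.074 (SE, adjusted p = 0.00622). SCW11, a glucanase of daughter cells, had 9.66, 9.58 and 9.63 in mbf1Δ, against 8.71, 8.69 and 8.77 in bna4Δ, a difference of 0.90 ± 0.034 (SE, adjusted p = 0.000767), and DSE4, a second such glucanase and over 3000 bases long, rose by 1.097 ± 0.084 (SE, adjusted p = 0.00403). Both cultures were harvested at the same labelled density, and the share of cells in each phase was not measured.

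Few ribosome biogenesis and ribosomal protein genes were called. Ribosome biogenesis had 1 of 116 higher and 2 lower, with 18 at an unadjusted p under 0.05 and a median of -0.062. Cytosolic ribosomal proteins had 2 of 80 higher and none lower, with a median of 0.060, and mitochondrial ribosomal proteins had 1 of 73 higher and 2 lower, with a median of -0.034. Over all genes, 17.3% were called. Without mbf1Δ array 3, ribosome biogenesis and mitochondrial ribosomal proteins had 4 lower each, and cytosolic ribosomal proteins had 4 higher and 1 lower. Translation factors and tRNA synthetases had 5 of 44 higher (11.4%, beside 11.1% of all genes) and 1 lower, and 2 of 38 members under 3000 bases were higher. Among the rises were CDC60, leucyl-tRNA synthetase (0.83), ALA1, alanyl-tRNA synthetase (0.44), PRT1, a subunit of the initiation factor eIF3 (0.43), and VAS1, valyl-tRNA synthetase (0.36). HEF3, a rarely used form of elongation factor 3, fell by 1.41 ± 0.13 (SE, adjusted p = 0.00587). This list had 3 higher and 3 lower without mbf1Δ array 3. Genes for RNA polymerases I and III were called at the share of all genes, 17.1% beside 17.3%, with 4 rises and 2 falls among 35, but 2 higher without mbf1Δ array 3 and 1 of 29 among members under 3000 bases. RPA135, a subunit of RNA polymerase I, is over 3000 bases long and rose by 1.11 ± 0.15 (SE, adjusted p = 0.0161). With 1 array left out, the adjusted p went up for CDC60 to 0.0625 (without mbf1Δ array 2), ALA1 to 0.0551 (without mbf1Δ array 2), PRT1 to 0.11 (without bna4Δ array 2), VAS1 to 0.109 (without bna4Δ array 3) and RPA135 to 0.0637 (without bna4Δ array 2).

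Several noncoding RNAs were lower in mbf1Δ, and those other than SNR14 were named after their values were seen. SNR14, the U4 RNA of the spliceosome, had 4.36, 4.93 and 4.32 in mbf1Δ, against 7.34, 7.39 and 7.60 in bna4Δ, a difference of -2.91 ± 0.20 (SE, adjusted p = 0.00318). SNR7-L, the long form of U5 RNA, fell by 2.06 ± 0.17 (SE, adjusted p = 0.0051), and TLC1, the telomerase RNA, had 7.21, 7.31 and 7.36 in mbf1Δ, against 8.94, 8.94 and 9.02 in bna4Δ, a difference of -1.67 ± 0.049 (SE, adjusted p = 0.000397). All 4 measured rRNA genes fell, with RDN18-1 at -0.77 ± 0.027 (SE, adjusted p = 0.000646) and RDN25-1 at -0.67 ± 0.046 (SE, adjusted p = 0.00318). The control sets for 18S rRNA had means of 9.92, 9.66 and 10.7 in mbf1Δ, against 11 to 11.1 in bna4Δ, and those for 25S rRNA 10.2, 10.2 and 11.1 in mbf1Δ, against 11.9 to 12 in bna4Δ. The rRNA genes are repeated copies of one unit, and mbf1Δ array 3 again differed from the others of its group. None of 57 small nucleolar RNAs and none of 91 transfer RNAs was called, with 7 and 8 at an unadjusted p under 0.05.

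The differences were set beside Htt103Q cells with neither deletion, without a test, since those arrays were deposited with another lowest value, 2.06, and strain and processing cannot be told apart. After quantile normalization of all 15 arrays, the lysine and arginine genes were highest in mbf1Δ. LYS20 had mean signals of 12.9 in mbf1Δ, 10.7 in bna4Δ and 8.68 in Htt103Q cells, and ARG3 of 9.71 in mbf1Δ, 6.28 in bna4Δ and 3.37 in Htt103Q cells. LYS9 had 12.4 in mbf1Δ, 7.97 in bna4Δ and 8.77 in Htt103Q cells, so mbf1Δ stood apart and bna4Δ lay close to Htt103Q cells. CTP1 showed the same arrangement, with 9.73 in mbf1Δ, 6.3 in bna4Δ and 6.6 in Htt103Q cells.

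For the anaerobic genes the arrangement was reversed, with bna4Δ apart. DAN1 had 2.1 in mbf1Δ, 9.35 in bna4Δ and 2.04 in Htt103Q cells. TIR1 had 4.83 in mbf1Δ, 11.7 in bna4Δ and 4.1 in Htt103Q cells, and HES1 2.29 in mbf1Δ, 6.21 in bna4Δ and 2.43 in Htt103Q cells. The mbf1Δ levels of these genes thus lay near those of Htt103Q cells. HXT2 had 5.68 in mbf1Δ, 9.37 in bna4Δ and 5.33 in Htt103Q cells, ADY2 4.17 in mbf1Δ, 7.92 in bna4Δ and 4.55 in Htt103Q cells and ANB1 5.22 in mbf1Δ, 8.44 in bna4Δ and 4.12 in Htt103Q cells. INO1 was low in bna4Δ alone, with 12 in mbf1Δ, 8.48 in bna4Δ and 11.6 in Htt103Q cells, as was PDR12, with 8.98 in mbf1Δ, 6.14 in bna4Δ and 8.89 in Htt103Q cells. PHO84 was low in mbf1Δ alone, with 5.34 in mbf1Δ, 8.75 in bna4Δ and 8.8 in Htt103Q cells. SPG4 lay between, with 5.95 in mbf1Δ, 10.6 in bna4Δ and 8.39 in Htt103Q cells.

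**Figure D5:**
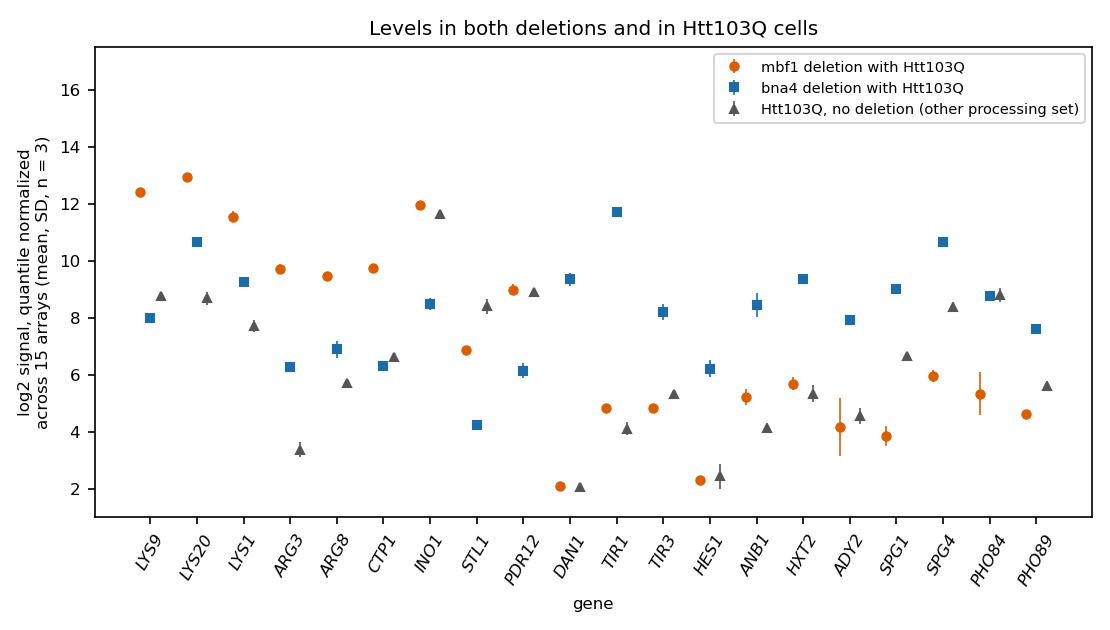
Mean log2 signal, quantile normalized across 15 arrays, with SD over 3 arrays, of 20 genes in mbf1Δ (orange circles), bna4Δ (blue squares) and Htt103Q cells without a deletion (grey triangles). For DAN1, TIR1, HES1, HXT2 and ADY2 the bna4Δ point lies above the other points, and for LYS9 and CTP1 the mbf1Δ point does.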

How the data were processed

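Total RNA was hybridised to Affymetrix yeast arrays after biotin labelling, per the labels. The deposited values are log2 intensities, 1 per probe set and array, made by the authors. How they summarised and normalised the probes is not stated in the labels or the table. The 6 arrays of both deletions share one lowest value (2.02), while the other 9 have 2.06. Probe sets were named from the platform annotation, and 6504 had 1 symbol, 328 several and 2443 none; symbols were updated by gene ID to RefSeq R64, which also gave lengths and neighbours.

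The test was limma (3.58.1, R 4.3.3), lmFit and eBayes, on the 6 arrays and 9275 probe sets, two-sided, with Benjamini-Hochberg adjustment. SE and intervals come from that fit. The procedure was tested on simulated data. A group was at the floor when its 3 arrays lay within 0.1 of the lowest value. Genes were named by a rule: deleted, neighbouring and marker genes, the 15 largest rises and falls that were called with no overlap, up to 5 called members of each of 58 lists (or 2 with the smallest p), and all NAD, sirtuin and Gcn4 members. Members, lists and rule were chosen with earlier results of these data known. Alternatives were quantile normalization, median centring, all 15 arrays, a minimum mean of 5, a variance trend, a replicate block and leaving out each array. No genome sequence was used.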

Additional observations from a re-analysis of the deposited data

How the results depend on the processing

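The 1269 called probe sets kept their sign under the alternatives, with 1 exception each under quantile normalization of the 6 and of all 15 arrays. Since the alternatives reuse the arrays that gave the calls, a change of sign was unlikely. Replicate numbers did not pair the arrays, with residual correlations of -0.0489, -0.0719 and -0.0738 between arrays of the same number. The replicate block gave 390 calls, 242 higher and 148 lower, and 158 were at least 2-fold, where fewer residual degrees of freedom were left. Leaving out 1 array gave 569 to 1657 calls, with 340 to 1029 higher and 229 to 628 lower, and between 251 and 500 calls were at least 2-fold. One model of all 15 arrays on deposited values called 521 higher. With genes of 1 probe set alone, 236 calls were at least 2-fold, and with genes under 3000 bases 208, where fewer probe sets were tested. These last limits were chosen after seeing the data. Of 221 named genes that were called, 118 kept the call in all 6 fits that left out 1 array and 103 lost it in at least 1. Under the replicate block 141 named genes lost their call, and under the 15-array fits 85 and 76, and the cause was not tested. A filter on mean signal of at least 5 called 1480 of 6285. In 1080 probe sets both groups were at the floor, where no difference can be seen.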

Other observations

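Vitamin, purine and drug resistance genes were not described above. Of 18 thiamine and pyridoxine genes, 3 rose (16.7%, beside 11.1% of all genes) and 2 fell (11.1%, beside 6.21%) in mbf1Δ. SNZ1, which makes vitamin B6, had log2 signals of 7.10, 7.12 and 7.05 in mbf1Δ, against 9.45, 9.83 and 9.72 in bna4Δ, a difference of -2.58 ± 0.11 (SE, adjusted p = 0.000896), and its partner SNO1 fell by 1.03 ± 0.18 (SE, adjusted p = 0.0272). Of 17 purine synthesis genes, 2 fell (11.8%, beside 6.21% of all genes) and 1 rose (5.88%, beside 11.1%). ADE17, of the last steps to inosine phosphate, had 6.62, 6.46 and 6.39 in mbf1Δ, against 7.90, 8.07 and 8.22 in bna4Δ, a difference of -1.57 ± 0.11 (SE, adjusted p = 0.00318). Of 22 drug resistance genes, 2 rose (9.09%, beside 11.1% of all genes) and 2 fell (9.09%, beside 6.21%), and 1 rose without mbf1Δ array 3. The regulator PDR1, a gene over 3000 bases long, rose by 1.28 ± 0.089 (SE, adjusted p = 0.00318), and the pump PDR10 fell by 1.47 ± 0.20 (SE, adjusted p = 0.0154). Leaving out 1 array moved the adjusted p of SNO1 to 0.097 (without bna4Δ array 2) and PDR10 to 0.0699 (without bna4Δ array 2).

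Of 33 early meiotic genes, 3 fell (9.09%, beside 6.21% of all genes) and 1 rose (3.03%, beside 11.1%), and 2 rose without mbf1Δ array 3. RIM4, an RNA-binding regulator of meiosis, had 5.48, 6.10 and 6.29 in mbf1Δ, against 4.54, 4.25 and 4.37 in bna4Δ, a difference of 1.57 ± 0.24 (SE, adjusted p = 0.0208). DMC1, the meiotic recombinase, had 3.54, 3.46 and 3.54 in mbf1Δ, against 5.21, 5.16 and 4.88 in bna4Δ, a difference of -1.57 ± 0.10 (SE, adjusted p = 0.00275) that one of its 2 probe sets gave and the other, at -0.0015, did not. Of 16 trehalose and glycogen genes, 3 rose (18.8%, beside 11.1% of all genes), and 7 were called higher and 1 lower without mbf1Δ array 3. TPS3, a subunit of trehalose synthase and over 3000 bases long, rose by 1.08 ± 0.16 (SE, adjusted p = 0.0201) and GSY2, glycogen synthase, by 0.77 ± 0.10 (SE, adjusted p = 0.0143). Of 26 autophagy and vacuolar protease genes, 4 rose (15.4%, beside 11.1% of all genes) and 1 fell (3.85%, beside 6.21%). The fall was in ATG8, the conjugated marker of autophagosomes, at -0.98 ± 0.16 (SE, adjusted p = 0.0224). Of 25 genes of the unfolded protein response, 4 rose (16%, beside 11.1% of all genes) and 1 fell (4%, beside 6.21%). IRE1, the sensor of unfolded proteins, over 3000 bases long, stood at 0.66 ± 0.09 (SE, adjusted p = 0.0154) and EUG1, a disulfide isomerase, at -0.57 ± 0.055 (SE, adjusted p = 0.00691). Leaving out 1 array moved the adjusted p of RIM4 to 0.0887 (without bna4Δ array 2), TPS3 to 0.0795 (without bna4Δ array 2), GSY2 to 0.0606 (without bna4Δ array 3), ATG8 to 0.0861 (without bna4Δ array 2) and IRE1 to 0.0704 (without bna4Δ array 2).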
